A study of Oryza sativa with 12 samples.

Results

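*THI1* and *THIC*, a pair of rice genes for the synthesis of thiamine (vitamin B1), were followed in young panicles of 4 lines. *THI1* (locus Os07t0529600 of the Rice Annotation Project, on chromosome 7) is described in the deposited table as a thiazole biosynthetic enzyme, and *THIC* (Os03t0679700, on chromosome 3) as the thiamine biosynthesis protein thiC. They were taken as every row of the count table whose identifier begins with either locus, which gave 2 transcripts of *THI1* and 4 of *THIC*, 6 of the 40722 transcripts in the table. All 6 passed the filter on low counts, as did 31643 transcripts in all. The second transcript of *THI1*, Os07t0529600-02, is described under another name, a pathogen-induced defense-responsive protein. RNA was sequenced from young panicles at the 2-mm stage, with 3 libraries per line and 12 in all. NIL-Prl5ST-1+Pbl6ST-1 carried both ST-1 segments, NIL-Prl5ST-1 the segment of chromosome 5 alone and NIL-Pbl6ST-1 the segment of chromosome 6 alone. Koshihikari, the japonica cultivar in which the near-isogenic lines (NILs) were made by repeated backcrossing, carried neither. ST-1 is a rice with long panicles, and its segments hold *Prl5*, a gibberellin 20-oxidase gene that affects the length of the panicle rachis, and *Pbl6*, the *APO1* gene, which affects the length of primary branches. No age or treatment was given for any line, and the plants were field-grown. A NIL can keep donor DNA outside its selected segment, which was not tested here.

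Thiamine is built in plants from a thiazole and a pyrimidine. THI1, also called THI4, makes the thiazole in the plastid and gives up a sulfur atom of its own chain in the reaction, as is known from yeast and plants, so that each molecule of the enzyme works once. THIC makes the pyrimidine, also in the plastid, and in plants the end of its messenger RNA carries a riboswitch that binds thiamine pyrophosphate. An enzyme of the TH1 type joins them, and a thiamine pyrophosphokinase makes the active cofactor, thiamine pyrophosphate, which pyruvate dehydrogenase, 2-oxoglutarate dehydrogenase and transketolase need.

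Total counts per library ranged between 16041196 and 31760529, and a count of 3 was worth between 0.0970 and 0.192 cpm (read counts scaled to a common library size). Libraries of one line differed by more than counting noise, with a chi-square per degree of freedom between 3.39 and 19.9. In a principal component analysis of all transcripts, NIL-Prl5ST-1+Pbl6ST-1 replicate 3, NIL-Prl5ST-1 replicate 2 and Koshihikari replicate 2 stood apart from the other libraries of their lines, and results that rest on them are given with and without them. The inflorescence genes *OSH1* and *MADS1* were high in all lines, at mean levels of 190 to 262 cpm and 156 to 175 cpm. The list of panicle markers also held *LAX1*, *FZP*, *MADS34* and *APO1*, whose levels are not given here. The leaf marker *RBCS2* (Os12t0274700-01) averaged 1.32 cpm or less in every line. Another leaf marker, a chlorophyll a/b-binding protein gene (Os01t0600900-02), averaged 2.47 to 4.37 cpm. The study's methods state that all experiments had biological replicates, without saying which plants or pools gave each RNA library, and the p-values measure the spread between these libraries.

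*THI1* was the more variable gene between lines. It was lowest in NIL-Pbl6ST-1, low in NIL-Prl5ST-1+Pbl6ST-1, and highest in NIL-Prl5ST-1. Transcript Os07t0529600-01 had 20.6, 28.7 and 25.5 cpm in the 3 libraries of NIL-Prl5ST-1+Pbl6ST-1. It had 159, 147 and 160 cpm in NIL-Prl5ST-1 and 12.2, 12.7 and 11.6 cpm in NIL-Pbl6ST-1, against 105, 94.2 and 88.3 cpm in Koshihikari. No library of one line overlapped with a library of another. The counts behind these levels were 396, 761 and 516 reads in NIL-Prl5ST-1+Pbl6ST-1, 2920, 4147 and 4938 in NIL-Prl5ST-1, 324, 278 and 181 in NIL-Pbl6ST-1, and 2407, 1966 and 2225 in Koshihikari. The other transcript, Os07t0529600-02, gave nearly the same picture, with means of 23.1 ± 3.35 cpm in NIL-Prl5ST-1+Pbl6ST-1, 141 ± 7.43 cpm in NIL-Prl5ST-1, 10.9 ± 0.466 cpm in NIL-Pbl6ST-1 and 88.1 ± 6.75 cpm in Koshihikari (SD, n = 3 each).

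*THIC* was lower in the lines with the *Pbl6* segment than in the lines without it. Transcript Os03t0679700-02, the most abundant of its 4 transcripts, had 3.32, 3.02 and 3.41 cpm in NIL-Prl5ST-1+Pbl6ST-1, 5.73, 5.87 and 5.56 cpm in NIL-Prl5ST-1 and 2.10, 2.47 and 1.54 cpm in NIL-Pbl6ST-1, against 5.46, 4.69 and 6.83 cpm in Koshihikari. Every library with the *Pbl6* segment was below every library without it, and NIL-Prl5ST-1 lay within the range of Koshihikari. Transcript Os03t0679700-01 had 3.01, 2.72 and 3.26 cpm in NIL-Prl5ST-1+Pbl6ST-1, 4.69, 5.19 and 4.88 cpm in NIL-Prl5ST-1 and 1.80, 2.28 and 1.47 cpm in NIL-Pbl6ST-1, against 5.02, 3.59 and 5.92 cpm in Koshihikari. These levels rest on 58, 72 and 66 reads in NIL-Prl5ST-1+Pbl6ST-1, 86, 147 and 151 in NIL-Prl5ST-1, 48, 50 and 23 in NIL-Pbl6ST-1, and 115, 75 and 149 in Koshihikari. Its lowest Koshihikari library, replicate 2, was still above the highest library of NIL-Prl5ST-1+Pbl6ST-1. Os03t0679700-03 averaged 3.23 ± 0.154 cpm in NIL-Prl5ST-1+Pbl6ST-1, 5.56 ± 0.118 cpm in NIL-Prl5ST-1 and 2.02 ± 0.466 cpm in NIL-Pbl6ST-1, against 5.54 ± 1.07 cpm in Koshihikari (SD, n = 3 each), close to the values of Os03t0679700-02. The shallowest of the 6 transcripts was Os03t0679700-04, with 30, 28 and 37 reads in NIL-Prl5ST-1+Pbl6ST-1, 38, 59 and 61 in NIL-Prl5ST-1, 23, 22 and 12 in NIL-Pbl6ST-1, and 61, 35 and 60 in Koshihikari. For this transcript Koshihikari replicate 2 was below the highest library of NIL-Prl5ST-1+Pbl6ST-1. Levels of *THI1* and *THIC* are not compared with each other, since the table gives no transcript lengths.

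**Figure D1:**
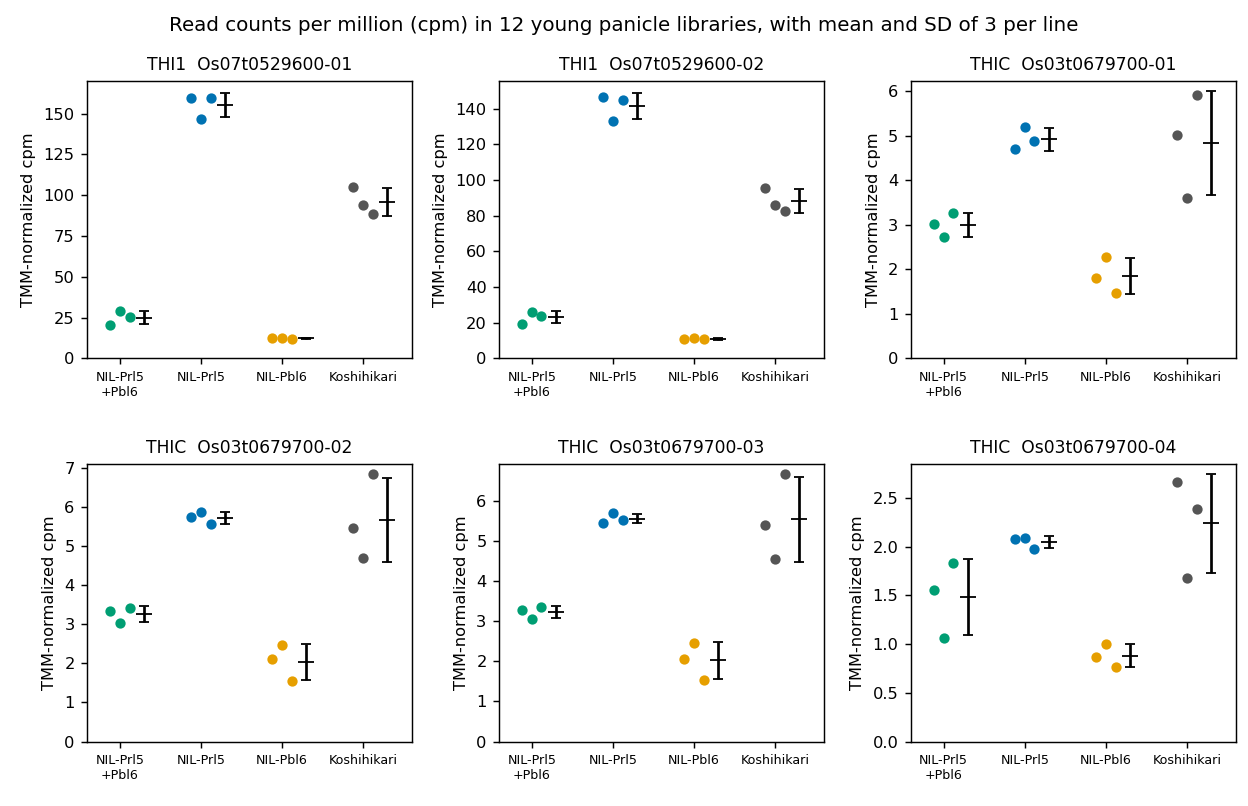
TMM-normalized cpm of the 2 *THI1* and 4 *THIC* transcripts in each of 12 libraries (points) by line, with the mean and SD of 3 libraries beside them; each vertical axis starts at 0. The 3 NIL-Pbl6ST-1 libraries are the lowest for every transcript, and the NIL-Prl5ST-1 libraries are the highest for *THI1* only.

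The first comparison asked what the *Pbl6* segment did alone. *THI1* fell in NIL-Pbl6ST-1 to 12.1 ± 0.555 cpm, against 95.9 ± 8.49 cpm in Koshihikari for Os07t0529600-01 (SD, n = 3 each), a log2 fold change of -2.98 (SE 0.10, 95% interval -3.20 to -2.76), or 7.89-fold lower. The adjusted p was 1.69e-08 by the edgeR quasi-likelihood test with Benjamini-Hochberg adjustment, which was used for every adjusted p here unless another test is named, and 0.05 was the threshold. Os07t0529600-02 fell by 3.01 on the log2 scale (edgeR adjusted p = 1.69e-08). Of the 31643 transcripts tested, 32 had a lower log2 fold change than Os07t0529600-01. *THIC* fell too, by 1.46 on the log2 scale for Os03t0679700-02 (SE 0.21, 95% interval -1.91 to -1.01, edgeR adjusted p = 0.00123) and by 1.34 for Os03t0679700-04 (edgeR adjusted p = 0.00733). All 6 transcripts were called lower in this comparison, where 8.49% of all transcripts were called in either direction and 5.42% were called lower. All 6 were also called when any 1 of the 6 libraries was left out, Koshihikari replicate 2 included. In whole panicles, fewer cells that express a gene and less RNA per cell cannot be told apart.

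With both segments, *THI1* was lower than in Koshihikari and higher than in NIL-Pbl6ST-1. Os07t0529600-01 averaged 24.9 ± 4.11 cpm in NIL-Prl5ST-1+Pbl6ST-1 and 95.9 ± 8.49 cpm in Koshihikari (SD, n = 3 each), a log2 fold change of -1.94 (SE 0.13, 95% interval -2.22 to -1.67, edgeR adjusted p = 1.07e-05). *THIC* was closer to the threshold. Os03t0679700-02 (-0.81, edgeR adjusted p = 0.0422) and Os03t0679700-03 (-0.79, edgeR adjusted p = 0.0467) were called lower, and Os03t0679700-01 (-0.71, edgeR adjusted p = 0.120) and Os03t0679700-04 (-0.62, edgeR adjusted p = 0.333) were not. This made 4 of 6 transcripts called lower, with 2.16% of all transcripts called in either direction. The *THIC* calls were lost when any one of Koshihikari replicates 1 and 3 and the 3 NIL-Prl5ST-1+Pbl6ST-1 libraries was left out, with edgeR adjusted p between 0.0641 and 0.206. Without NIL-Prl5ST-1+Pbl6ST-1 replicate 3, which stood apart, it was 0.0641 for Os03t0679700-02 and 0.0728 for Os03t0679700-03. Without Koshihikari replicate 2, 3 of the 4 *THIC* transcripts were called. When the counts were summed over the transcripts of a locus, *THIC* was 1.68-fold lower with an edgeR adjusted p of 0.0282. The transcripts may share reads, so that this sum may count a read more than once. The summed fit was not run with a library left out, so it does not offset the lost calls.

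The *Prl5* segment alone went with a higher *THI1* level. Os07t0529600-01 had 147 to 160 cpm in NIL-Prl5ST-1 and 88.3 to 105 cpm in Koshihikari (n = 3 each), 1.62-fold higher (log2 fold change 0.70, SE 0.11, 95% interval 0.47 to 0.93, edgeR adjusted p = 0.0128). Os07t0529600-02 rose by 0.69 on the log2 scale (edgeR adjusted p = 0.0128). These were the only calls among the 6 transcripts, and 0.743% of all transcripts were called in this comparison. The adjusted p of Os07t0529600-01 was 0.0649 without Koshihikari replicate 3, 0.0980 without NIL-Prl5ST-1 replicate 1 and 0.0668 without NIL-Prl5ST-1 replicate 3, with log2 fold changes of 0.64 to 0.77 over all libraries left out in turn. The *THI1* transcripts were still called without Koshihikari replicate 2 and without NIL-Prl5ST-1 replicate 2, the libraries that stood apart. With the replicate number as a block the edgeR adjusted p of Os07t0529600-01 was 0.105. None of the 4 *THIC* transcripts was called by edgeR or by DESeq2, and none had an unadjusted p under 0.05, beside 7894 of all 31643 transcripts. The *THIC* log2 fold changes lay between -0.14 and 0.02, with a 95% interval of -0.34 to 0.37 for Os03t0679700-02, and the sign of these small values changed with the library left out.

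Set against either single line, the line with both segments differed in *THI1*, and in *THIC* the calls were against NIL-Prl5ST-1 alone. Against NIL-Prl5ST-1, Os07t0529600-01 was 6.21-fold lower (log2 fold change -2.63, edgeR adjusted p = 6.71e-09). *THIC* fell by 0.72 to 0.82 on the log2 scale for Os03t0679700-01, -02 and -03, with edgeR adjusted p of 0.00678, 0.00236 and 0.00298, and the value for Os03t0679700-04 was -0.48 (edgeR adjusted p = 0.167). That made 5 of 6 called, in a comparison where 25.3% of all transcripts were called. Against NIL-Pbl6ST-1, Os07t0529600-01 was 2.06-fold higher (log2 fold change 1.04, SE 0.11, edgeR adjusted p = 8.59e-05) and Os07t0529600-02 2.11-fold higher (edgeR adjusted p = 4.10e-05). These 2 were the members called, beside 0.777% of all transcripts. The 4 *THIC* transcripts were not called there by edgeR or by DESeq2, which gave no adjusted p for Os03t0679700-04. Their groups did not overlap, and the log2 fold changes were 0.65 to 0.72 (edgeR adjusted p of 0.142 to 0.241). All 4 had an unadjusted p under 0.05, as did 5042 of all 31643 transcripts. How many of all transcripts had groups without overlap was not computed. Between the single lines, Os07t0529600-01 was 12.9-fold higher in NIL-Prl5ST-1 than in NIL-Pbl6ST-1 (log2 fold change 3.69, SE 0.09, edgeR adjusted p = 2.76e-11), and *THIC* was higher by 1.21 to 1.48 on the log2 scale. All 6 transcripts were called higher in NIL-Prl5ST-1, where 26.0% of all transcripts were called.

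The order of *THI1* levels was thus NIL-Prl5ST-1, Koshihikari, NIL-Prl5ST-1+Pbl6ST-1 and NIL-Pbl6ST-1, and each neighbour in that order passed the test above, although the call between NIL-Prl5ST-1 and Koshihikari was lost under the replicate block and without 3 of the 6 libraries. For *THIC* the lowest level was again that of NIL-Pbl6ST-1, followed by NIL-Prl5ST-1+Pbl6ST-1, and the difference between these neighbours did not pass the adjusted p although their libraries did not overlap. NIL-Prl5ST-1 and Koshihikari did not differ in *THIC* beyond their spread. The 6 comparisons share libraries, so that their values are not independent of each other.

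**Figure D2:**
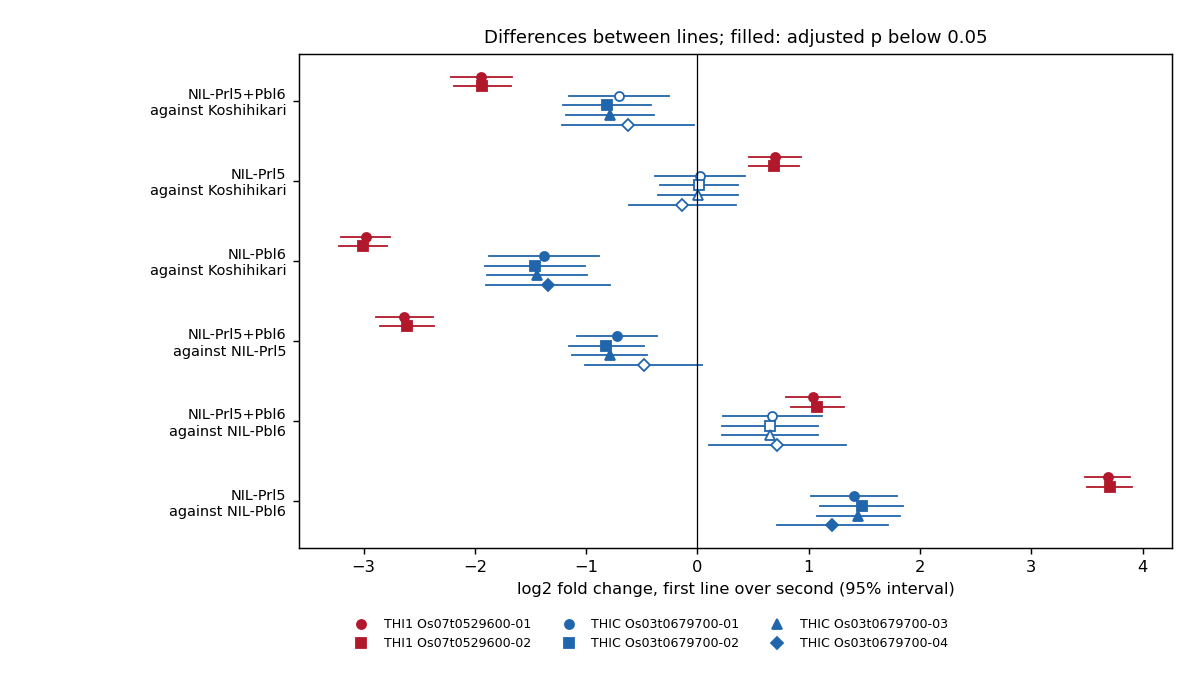
Log2 fold changes (points) with 95% intervals (lines) of the 6 transcripts in each of 6 comparisons of lines, the first-named line over the second; filled points have an adjusted p below 0.05. *THI1* (red) lies further from 0 than *THIC* (blue) in every comparison. The lowest and highest values of *THI1* are those of Os07t0529600-02, -3.01 in NIL-Pbl6ST-1 against Koshihikari and 3.70 in NIL-Prl5ST-1 against NIL-Pbl6ST-1.

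An interaction term over all 12 libraries asked whether the difference made by one segment changed with the other. None of the 6 transcripts was called by edgeR or by DESeq2, with 3.93% of all transcripts called. The estimates were all above 0, at 0.34 and 0.39 for the *THI1* transcripts (edgeR adjusted p of 0.156 and 0.0967) and 0.64 to 0.86 for the *THIC* transcripts (edgeR adjusted p of 0.107 to 0.138). All 6 had an unadjusted p under 0.05, as did 9146 of all 31643 transcripts. Without Koshihikari replicate 2, one of the libraries that stood apart, the 4 *THIC* transcripts passed the threshold, with edgeR adjusted p of 0.0264 to 0.0413. In that fit 7579 of all 31643 transcripts passed the threshold. The *THI1* transcripts did not pass it under any library left out.

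The transcripts of each gene kept nearly constant proportions. The count of Os07t0529600-02 was 0.889 to 0.944 times that of Os07t0529600-01 in every library. Os03t0679700-02 had 1.04 to 1.31 times the count of Os03t0679700-01, and Os03t0679700-04 had 0.389 to 0.561 times. Over 24 comparisons of a ratio between lines, the largest difference was 0.22 on the log2 scale. The smallest p was 0.1 by the exact two-sided permutation test, which is the smallest that 3 libraries against 3 allow, and the smallest adjusted p was 0.64. How reads that match several transcripts of a locus were counted is not given in the sources used here, so that the 6 rows are not 6 independent measurements.

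Summed over transcripts, *THI1* had 40.0, 54.8 and 49.2 cpm in NIL-Prl5ST-1+Pbl6ST-1, 306, 279 and 305 cpm in NIL-Prl5ST-1, 23.0, 24.2 and 22.1 cpm in NIL-Pbl6ST-1, and 201, 180 and 171 cpm in Koshihikari. *THIC* had 11.2, 9.86 and 11.9 cpm in NIL-Prl5ST-1+Pbl6ST-1, 18.0, 18.8 and 17.9 cpm in NIL-Prl5ST-1, 6.83, 8.22 and 5.31 cpm in NIL-Pbl6ST-1, and 18.6, 14.5 and 21.8 cpm in Koshihikari. The libraries fell into separate groups by line, so no correlation over all 12 is given. Over the 6 libraries with the *Pbl6* segment, Pearson's r of log2 cpm was 0.849 (exact permutation p = 0.0486, adjusted 0.0972) and Spearman's rho 0.829 (exact permutation p = 0.0583, adjusted 0.117), and r was 0.886 without the 2 libraries farthest from the median of *THI1*. Over the 6 libraries without the segment, r was -0.0125 (exact permutation p = 0.974, adjusted 0.974) and rho -0.314 (exact permutation p = 0.564, adjusted 0.564), and r was -0.54 without the 2 farthest. Each set of 6 libraries holds 2 lines, and the permutation took no account of line. These p-values therefore include the difference between lines and do not measure a relation apart from it. For deviations from the line means, r was 0.0420 with the segment and -0.256 without it, so that no relation was seen between libraries of the same line.

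**Figure D3:**
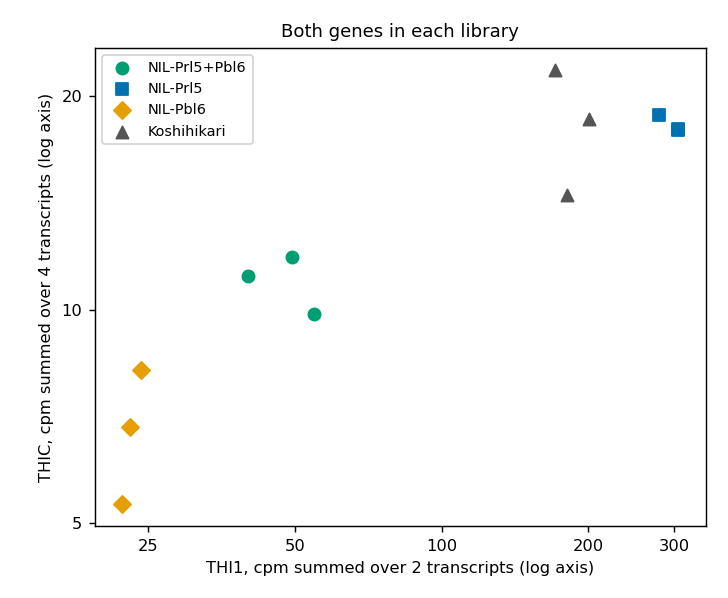
*THIC* against *THI1* in each of the 12 libraries, in cpm summed over the transcripts of a locus, both on log axes; 2 NIL-Prl5ST-1 libraries lie almost on top of each other. The 6 libraries with the *Pbl6* segment lie at 54.8 cpm of *THI1* or less and 11.9 cpm of *THIC* or less, and the lines without it differ in *THI1* only.

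No other transcript of the thiamine pathway was called against Koshihikari by the quasi-likelihood test. A list taken by words in the transcript descriptions held 11 transcripts of 8 other loci, all tested. None passed the threshold in any of the 3 NILs against Koshihikari by that test or by DESeq2, and edgeR's exact test called 1, in NIL-Pbl6ST-1. At an unadjusted p under 0.05 there were 2 in NIL-Prl5ST-1+Pbl6ST-1, 0 in NIL-Prl5ST-1 and 3 in NIL-Pbl6ST-1. Over all 31643 transcripts the counts were 4357, 7894 and 8009, in that order. Without Koshihikari replicate 2, 1 of the 11 was called in NIL-Pbl6ST-1, where 7326 of all 31643 transcripts were called. The median log2 fold change of the list was -0.12 in NIL-Prl5ST-1+Pbl6ST-1, -0.13 in NIL-Prl5ST-1 and -0.21 in NIL-Pbl6ST-1, beside medians over all transcripts that lay within 0.02 of 0. The words also brought in a protein with a ThiamineS domain (Os02t0558300-01) and a permease (Os02t0666700-01), which are not enzymes of the pathway.

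Of the TH1-type enzymes, which phosphorylate the pyrimidine and join it to the thiazole, Os04t0479700-01 had a log2 fold change of -0.53 in NIL-Prl5ST-1+Pbl6ST-1 (edgeR adjusted p = 0.305), -0.27 in NIL-Prl5ST-1 (edgeR adjusted p = 0.542) and -0.63 in NIL-Pbl6ST-1 (edgeR adjusted p = 0.0621) against Koshihikari. The 3 transcripts of the other TH1-type locus, Os12t0192500-01, Os12t0192500-02 and Os12t0192500-03, lay between -0.22 and -0.12. The hydroxyethylthiazole kinase Os01t0363600-01, which salvages the thiazole, had log2 fold changes of -0.12 in NIL-Prl5ST-1+Pbl6ST-1, -0.05 in NIL-Prl5ST-1 and -0.09 in NIL-Pbl6ST-1. Among the pyrophosphokinases, which make the cofactor, Os05t0367400-01 averaged 2.67 ± 0.433 cpm in NIL-Prl5ST-1+Pbl6ST-1, 1.63 ± 0.514 cpm in NIL-Prl5ST-1 and 2.63 ± 0.611 cpm in NIL-Pbl6ST-1, against 1.75 ± 0.320 cpm in Koshihikari (SD, n = 3 each). It was not called against Koshihikari, with log2 fold changes of 0.60 in NIL-Prl5ST-1+Pbl6ST-1, -0.13 in NIL-Prl5ST-1 and 0.60 in NIL-Pbl6ST-1. It was called higher in NIL-Prl5ST-1+Pbl6ST-1 than in NIL-Prl5ST-1 (0.73, edgeR adjusted p = 0.0431) and lower in NIL-Prl5ST-1 than in NIL-Pbl6ST-1 (-0.73, edgeR adjusted p = 0.0472), where *THI1* differed in the opposite direction. It was the only 1 of the 11 transcripts of the list called in either comparison, where 25.3% and 26.0% of all transcripts were called. DESeq2 made neither call, and neither was left without NIL-Prl5ST-1 replicate 3. The pyrophosphokinases Os01t0356500-01, Os01t0931400-01 and Os01t0931400-02 lay between -0.25 and 0.09 against Koshihikari in the 3 NILs, none called.

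Enzymes that use the cofactor were listed in the same way, as 28 transcripts of 21 loci. Against Koshihikari, 0 were called higher and 2 lower in NIL-Prl5ST-1+Pbl6ST-1, 0 higher and 2 lower in NIL-Prl5ST-1, and 3 higher and 1 lower in NIL-Pbl6ST-1. The shares of all transcripts called in these comparisons were 2.16%, 0.743% and 8.49%, in that order. With any 1 library left out no call on the list was left in NIL-Prl5ST-1+Pbl6ST-1. In NIL-Prl5ST-1 there were 8 calls without Koshihikari replicate 2 and 6 without NIL-Prl5ST-1 replicate 2. Of all 31643 transcripts, 6574 and 3568 were called in those fits. In NIL-Pbl6ST-1 there were 9 calls without Koshihikari replicate 2, where 7326 of all transcripts were called. None was left without Koshihikari replicate 3 or NIL-Pbl6ST-1 replicate 1 or 2, and 2 were left without either of the other libraries. The median log2 fold change was -0.03 in NIL-Prl5ST-1+Pbl6ST-1, -0.25 in NIL-Prl5ST-1 and 0.14 in NIL-Pbl6ST-1. The called transcripts are named here after their values were seen. Most were of 1-deoxy-D-xylulose 5-phosphate synthase, the first enzyme of the plastid isoprenoid pathway, whose product also enters thiazole synthesis in bacteria. Its transcript Os05t0408900-01 averaged 10.6 ± 0.472 cpm in NIL-Prl5ST-1+Pbl6ST-1, 5.52 ± 1.11 cpm in NIL-Prl5ST-1 and 21.7 ± 3.19 cpm in NIL-Pbl6ST-1, against 15.0 ± 1.34 cpm in Koshihikari (SD, n = 3 each). It was lower in NIL-Prl5ST-1+Pbl6ST-1 (-0.51, edgeR adjusted p = 0.0484), lower in NIL-Prl5ST-1 (-1.45, edgeR adjusted p = 0.00124) and higher in NIL-Pbl6ST-1 (0.54, edgeR adjusted p = 0.0199). Its second transcript Os05t0408900-02 was called in the same directions. This locus is on chromosome 5, the chromosome of the *Prl5* segment, and whether it lies within that segment was not tested. A second locus of the enzyme, Os06t0142900-01, was lower in NIL-Pbl6ST-1 (-0.42, edgeR adjusted p = 0.0201), and the alpha subunit of pyruvate dehydrogenase, Os04t0119400-01, was higher there (0.35, edgeR adjusted p = 0.0246).

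Most clock genes were called in NIL-Pbl6ST-1, and fewer with both segments. The *THIC* gene of Arabidopsis is under circadian control, and neither the labels nor the study's methods give the hour at which the panicles were taken. A list of 10 clock loci held 19 transcripts. Against Koshihikari, 3 were called higher and 8 lower in NIL-Prl5ST-1+Pbl6ST-1, none in NIL-Prl5ST-1, and 3 higher and 14 lower in NIL-Pbl6ST-1, with a median log2 fold change of -0.27 in NIL-Prl5ST-1+Pbl6ST-1, 0.05 in NIL-Prl5ST-1 and -1.30 in NIL-Pbl6ST-1. The shares of all transcripts called in these comparisons were 2.16%, 0.743% and 8.49%, in that order. In NIL-Prl5ST-1, 9 of the 19 had an unadjusted p under 0.05, beside 7894 of all 31643 transcripts. Among the 19, DESeq2 called 4, edgeR's exact test called 5 and the fit of all 12 libraries called 6. There edgeR called 5 when Koshihikari replicate 2 was left out, 3 when NIL-Prl5ST-1 replicate 2 was, and 2 when Koshihikari replicate 3 was. Of all 31643 transcripts, 6574, 3568 and 101 were called in those fits, in that order. DESeq2 called 2007 of them, the exact test 2580 and the fit of all 12 libraries 3635. With any 1 library left out, 8 to 11 were called in NIL-Prl5ST-1+Pbl6ST-1 and 15 to 17 in NIL-Pbl6ST-1. *GIGANTEA* (*GI*, Os01t0182600-01), an evening clock gene, had 51.1, 49.9 and 55.9 cpm in NIL-Prl5ST-1+Pbl6ST-1, 183, 201 and 188 cpm in NIL-Prl5ST-1 and 14.9, 18.5 and 13.7 cpm in NIL-Pbl6ST-1, against 186, 159 and 222 cpm in Koshihikari. Like *THIC*, it was low in both lines with the *Pbl6* segment and did not differ beyond the spread between NIL-Prl5ST-1 and Koshihikari. *LHY* (Os08t0157600-01), a morning clock gene named after its values were seen, ran the other way, with 487 ± 37.7 cpm in NIL-Prl5ST-1+Pbl6ST-1, 195 ± 1.42 cpm in NIL-Prl5ST-1 and 486 ± 22.7 cpm in NIL-Pbl6ST-1, against 250 ± 21.0 cpm in Koshihikari (SD, n = 3 each). The part of the clock genes, and of the hour of sampling, in the *THI1* and *THIC* values was not tested.

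**Figure D4:**
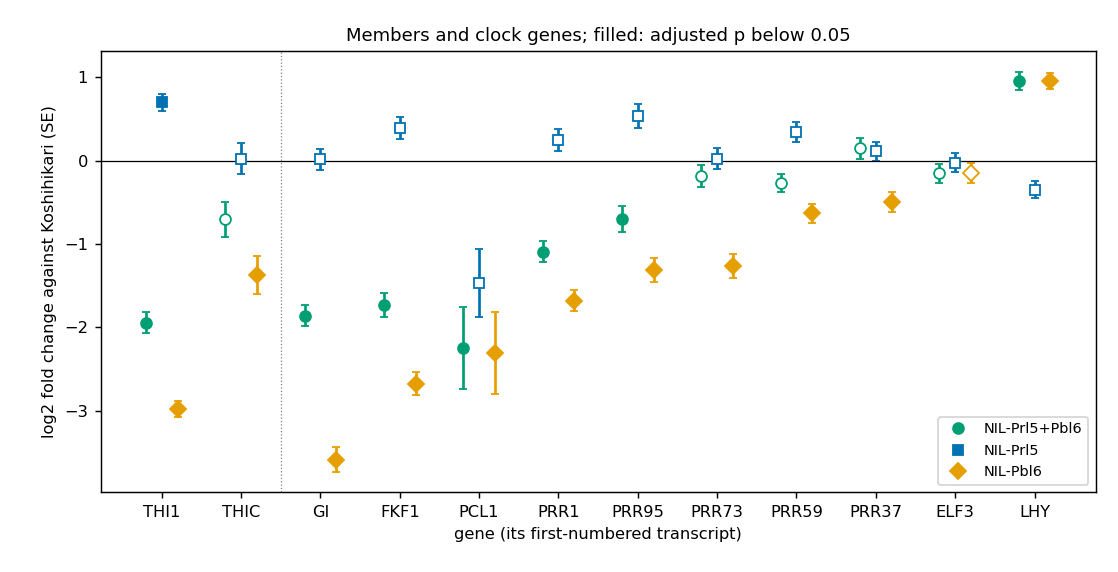
Log2 fold changes against Koshihikari (SE) of *THI1*, *THIC* and the 10 clock genes in the 3 NILs, for the first-numbered transcript of each; filled points have an adjusted p below 0.05. *THI1* is at -1.94 in NIL-Prl5ST-1+Pbl6ST-1 and at -2.98 in NIL-Pbl6ST-1, *GI* falls in the same lines, *LHY* rises in them, and no clock gene is called in NIL-Prl5ST-1 by the edgeR quasi-likelihood test on the 6 libraries.

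Some transcripts of the photosynthetic apparatus, which mark green tissue, moved between the lines too. Of the 59 tested, 1 was called higher and 4 lower in NIL-Prl5ST-1+Pbl6ST-1 against Koshihikari, 1 higher and 0 lower in NIL-Prl5ST-1, and 1 higher and 12 lower in NIL-Pbl6ST-1, with a median log2 fold change of -0.10 in NIL-Prl5ST-1+Pbl6ST-1, 0.35 in NIL-Prl5ST-1 and -0.27 in NIL-Pbl6ST-1. The shares of all transcripts called in these comparisons were 2.16%, 0.743% and 8.49%, in that order. In NIL-Prl5ST-1 the count of calls on the list was 21 without Koshihikari replicate 2, 12 without NIL-Prl5ST-1 replicate 2 and 0 when any other single library was left out. Of all 31643 transcripts, 6574 were called without Koshihikari replicate 2 and 3568 without NIL-Prl5ST-1 replicate 2. The count of calls on the list was 2 in NIL-Prl5ST-1+Pbl6ST-1 without any one library of that line, and 6 to 8 in NIL-Pbl6ST-1 without any one library of that line. Their summed level was 261 to 306 cpm in NIL-Prl5ST-1+Pbl6ST-1, 351 to 447 cpm in NIL-Prl5ST-1 and 249 to 261 cpm in NIL-Pbl6ST-1, against 268 to 387 cpm in Koshihikari. The leaf marker *RBCS2* (Os12t0274700-01), the small subunit of the carbon-fixing enzyme, was low in every line, with 0.551 ± 0.245 cpm in NIL-Prl5ST-1+Pbl6ST-1, 1.32 ± 0.199 cpm in NIL-Prl5ST-1 and 0.321 ± 0.129 cpm in NIL-Pbl6ST-1, against 0.727 ± 0.179 cpm in Koshihikari (SD, n = 3 each). The other leaf marker, Os01t0600900-02, averaged 4.11 ± 1.05 cpm in NIL-Prl5ST-1+Pbl6ST-1 and 4.37 ± 0.511 cpm in NIL-Prl5ST-1. It averaged 2.47 ± 1.04 cpm in NIL-Pbl6ST-1 and 3.16 ± 2.22 cpm in Koshihikari (SD, n = 3 each). Of the 70 transcripts on the list, 1 was at 0 in the libraries of NIL-Prl5ST-1+Pbl6ST-1 and 1 in those of Koshihikari. The part of green tissue in the *THI1* values was not tested.

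The genes next to the members were compared with them by position in the annotation, as the 5 tested loci on each side. None of the 10 neighbours of *THI1* was called by the quasi-likelihood test in a NIL against Koshihikari, with 0 at an unadjusted p under 0.05 in NIL-Prl5ST-1+Pbl6ST-1, 2 in NIL-Prl5ST-1 and 1 in NIL-Pbl6ST-1. Such a p was seen for 4357, 7894 and 8009 of all 31643 transcripts, in that order. In NIL-Prl5ST-1, DESeq2, edgeR's exact test and the fit without the filter called 1 neighbour each, and the fit of all 12 libraries called 2. Without Koshihikari replicate 2 edgeR called 3 in NIL-Prl5ST-1 and 2 in NIL-Pbl6ST-1, and without NIL-Prl5ST-1 replicate 2 it called 2 in NIL-Prl5ST-1. Of all 31643 transcripts, 6574, 7326 and 3568 were called in those fits, in that order. Of the 10 neighbours of *THIC*, 2 were called higher in NIL-Pbl6ST-1, Os03t0678400-01 (0.56, edgeR adjusted p = 0.0125) and Os03t0680200-00 (0.45, edgeR adjusted p = 0.00989), where *THIC* fell. Another neighbour, Os03t0678800-00, was called lower in NIL-Prl5ST-1 (-2.34, edgeR adjusted p = 0.0364), and it varied between 3.88 and 18.4 cpm among the Koshihikari libraries. The shares of all transcripts called were 8.49% in NIL-Pbl6ST-1 and 0.743% in NIL-Prl5ST-1. None of the *THIC* neighbours was called in NIL-Prl5ST-1+Pbl6ST-1, where the share was 2.16%. The 3 neighbours named here were chosen after their values were seen. In NIL-Pbl6ST-1 no *THIC* neighbour was called without replicate 1 of that line and 1 was called without its replicate 2 or 3. In NIL-Prl5ST-1, 2 were called without Koshihikari replicate 2 or NIL-Prl5ST-1 replicate 2 and none when any other single library was left out.

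The transcripts whose log2 cpm followed each member most closely over the 12 libraries were picked by Pearson's r among 15356 transcripts of at least 10 cpm on average, as a description in which the points share lines and libraries. For *THI1* these were a dnaJ-like chaperone (Os03t0300600-01, r = 0.989), a SANT-domain protein (Os02t0539600-01, 0.989), a sugar transporter (Os03t0197100-01, 0.986), a phytanoyl-CoA dioxygenase family protein (Os03t0708100-01, 0.986) and a protein with a DUF3727 domain (Os04t0692200-01, 0.984). The chaperone averaged 7.24 ± 0.899 cpm in NIL-Prl5ST-1+Pbl6ST-1, 37.3 ± 5.56 cpm in NIL-Prl5ST-1 and 3.74 ± 0.636 cpm in NIL-Pbl6ST-1, against 22.1 ± 4.50 cpm in Koshihikari (SD, n = 3 each), which is the order of *THI1*. None of the 5 was among the 5 closest by Spearman's rho. For *THIC* they were a protein described as a regulatory subunit (Os02t0613200-03, 0.984) and the adjacent hypothetical gene Os02t0613300-00 (0.980), *GI* (Os01t0182600-01, 0.977), an NF-X1-type zinc finger protein (Os01t0158900-01, 0.971) and a methylmalonate-semialdehyde dehydrogenase (Os07t0188800-01, 0.971), with 2 of the 5 shared with the closest by rho.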

How the data were processed

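RNA of 2-mm young panicles was sequenced from 4 rice lines, 3 libraries each. The values the authors deposited are unnormalized counts of reads for each transcript of the RAP annotation. The submitters' processing notes name bcl2fastq, Bowtie and the genome build IRGSP-1.0, with no versions, and the study's methods name edgeR for normalization. The use of strand and the treatment of reads shared by transcripts or paralogs are not given in the sources used here.

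Counts were normalized by TMM and tested with glmQLFit and glmQLFTest of edgeR 4.0.16 in R 4.3.3, two-sided, on the 6 libraries of each comparison, over transcripts kept by filterByExpr (count minimum 10, total 15, smallest group 3). The interaction was fitted on all 12 libraries. Benjamini-Hochberg adjustment covered the 31643 transcripts tested, with calls at an adjusted p below 0.05. Fitted log2 fold changes used a prior count of 0.125, and cpm are counts over TMM-scaled totals. Depth was 16041196 to 31760529 counts per library. The test was tested on simulated data.

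The members and the lists were chosen with earlier results of these data known. Genes named are all members, the kinase steps of the thiamine list, any other gene of that list called against Koshihikari, and the 5 transcripts most like each member by Pearson's r; other names were chosen after their values were seen. Alternatives were DESeq2 1.42.0 and its size factors, edgeR's exact test, a fit without the filter, one with a minimum of 10 counts in each library, all 12 libraries in one fit, counts summed per locus, a replicate block and each library left out in turn. Calls by locus and the relation within the libraries with or without the *Pbl6* segment were added after seeing the data. Promoter motifs were not searched.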

Additional observations from a re-analysis of the deposited data

How the results depend on the processing

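In NIL-Pbl6ST-1 against Koshihikari, in NIL-Prl5ST-1+Pbl6ST-1 against each single line and in NIL-Prl5ST-1 against NIL-Pbl6ST-1, the number of member transcripts called was the same under all alternatives run. In NIL-Prl5ST-1+Pbl6ST-1 against Koshihikari it was 4, and 2 to 5 with 1 library left out (loci called 1 to 2), with 2 in each case but Koshihikari replicate 2. There Os03t0679700-03 was lost with a minimum of 10 counts in every library (edgeR adjusted p = 0.0548). Os03t0679700-01 was added by edgeR's exact test (adjusted p = 0.0481). In NIL-Prl5ST-1 against Koshihikari, with 2 transcripts of 1 locus called, the replicate block left 0 transcripts and 0 loci (Os07t0529600-01 0.70, edgeR adjusted p = 0.105), and leaving out 1 library gave 0 to 2 transcripts and 0 to 1 loci. The interaction gave 0, and 0 to 4 transcripts of 0 to 1 loci with 1 library left out, the 4 being *THIC* without Koshihikari replicate 2. The replicate numbers of the lines were not taken as pairs, since same-number correlations lay between -0.31 and 0.36 and no comparison had all of them over 0.1. The block also brought Os03t0679700-01 past the threshold with both segments against Koshihikari (edgeR adjusted p = 0.0450) and changed no other member call. The sign of *THIC* in NIL-Prl5ST-1 against Koshihikari was not stable. Os03t0679700-03 had -0.0027 without the filter and -0.00042 with all 12 libraries in one fit. With 1 library left out, Os03t0679700-01 ranged over -0.14 to 0.19, Os03t0679700-02 over -0.098 to 0.17, Os03t0679700-03 over -0.11 to 0.16 and Os03t0679700-04 over -0.30 to 0.0023. Over the libraries without the *Pbl6* segment, r of *THI1* and *THIC* was 0.0044 with DESeq2 size factors. The cause of these changes was not tested. Counts over all transcripts moved more. With both segments against Koshihikari 685 were called, 1292 with the block, 1327 by the exact test, 1066 with all 12 libraries and 270 to 837 with 1 left out. In NIL-Prl5ST-1 against Koshihikari 235 were called, 2007 by DESeq2, 1716 without the filter, 130 with 10 counts in every library, 69 with the block, 2580 by the exact test, 3635 with all 12 libraries, and 63 to 6574 with 1 left out, the highest without Koshihikari replicate 2. In NIL-Pbl6ST-1 against Koshihikari 2686 were called, 1750 with the block and 1067 to 7326 with 1 left out. Against NIL-Prl5ST-1 the line with both segments had 8021 (3883 to 11158 with 1 left out) and against NIL-Pbl6ST-1 246, with 104 to 959 under the other alternatives and 95 to 750 with 1 left out. NIL-Prl5ST-1 against NIL-Pbl6ST-1 had 8215 (4088 to 12917 with 1 left out). The interaction had 1243, against 142 with the block, 3554 by DESeq2, 2877 without the filter, 781 by locus and 7 to 7579 with 1 left out. Leaving out 1 library in turn was not run for the relation of *THI1* and *THIC*, since it leaves 5 libraries a group. Os03t0679700-04, at 12 to 61 reads, was the member most limited by depth.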
